A study of Mus musculus with 10 samples.

Results

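The replication-dependent histone genes of the mouse lie in tight groups, and the 3 groups examined here are a proximal segment of chromosome 13 (21.70 to 22.05 Mb in mm10), a distal segment of chromosome 13 (23.53 to 23.78 Mb) and a cluster on chromosome 3 (96.20 to 96.28 Mb). Every protein-coding histone gene inside these bounds was a member, which gave 62 of 21887 protein-coding genes: 23 in the proximal segment, 29 in the distal segment and 10 on chromosome 3. By protein they were 6 H1, 16 H2A, 16 H2B, 12 H3 and 12 H4 genes. Of the 151133 regions counted in the study, 55 overlapped the clusters, 35 in the proximal segment, 17 in the distal segment and 3 on chromosome 3. The bounds were set by position, not by any measured value.

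The libraries came from RN2 cells, a mouse leukaemia line of C57BL/6 origin that carries the MLL-AF9 fusion and NRASG12D. All cells had been given murine IKZF2 with RFP by retrovirus, were sorted, and were kept in culture for 2 weeks, so IKZF2 was overexpressed in each sample used. The 6 samples analysed were 3 CUT&RUN libraries made with an antibody to IKZF2, each sequenced as 2 technical replicates. The other 4 of 10 labelled samples were a control antibody (2 libraries with 2 technical replicates each) and were not analysed here, so no background level was subtracted and no cells without added IKZF2 enter any comparison. Whether the 3 libraries stem from separate cultures is not labelled, so p-values measure only the spread between these libraries.

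IKZF2, also called Helios, belongs to the Ikaros proteins, which bind DNA through zinc fingers at sites with a GGGAA core. Replication-dependent histone genes are short genes without introns, transcribed mainly in S phase, when new chromatin is assembled on replicated DNA. They sit in nuclear bodies organised by NPAT, many H2A and H2B genes form divergent pairs with a shared promoter, and their messages end in a stem-loop instead of a poly(A) tail. CUT&RUN cuts and releases the DNA beside an antibody-bound protein, so a region with many reads marks DNA near that protein or DNA that is readily cut.

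The promoter bases at the strongest start-site regions are printed here because most of the highest values in the clusters lay there. Each line gives the 250 bases before a gene's start, 5′ to 3′ along the gene, from RefSeq (GRCm38.p6). Capitals mark matches on either strand. The motifs searched were CCAAT, which is bound by the factor NF-Y, and the box TATAAA, at which the general transcription machinery assembles. The octamer ATTTGCAT is read by OCT factors. The element AAACACA is known from promoters of H1 genes, and TGGGAA is a longer form of the GGGAA core read by proteins of the Ikaros family. The H2bc6 bases lie at chr13:23585971-23586220 on the minus strand, those of H3c8 at chr13:23535168-23535417 on the plus strand, those of H2bc11 at chr13:22042948-22043197 on the plus strand, those of H3c2 at chr13:23752095-23752344 on the plus strand and those of H4c2 at chr13:23756687-23756936 on the plus strand.
H2bc6: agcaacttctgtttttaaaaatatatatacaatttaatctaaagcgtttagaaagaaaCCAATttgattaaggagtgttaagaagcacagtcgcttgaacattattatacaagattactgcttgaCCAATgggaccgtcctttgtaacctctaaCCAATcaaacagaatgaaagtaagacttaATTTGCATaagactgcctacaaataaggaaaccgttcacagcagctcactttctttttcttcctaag
H3c8: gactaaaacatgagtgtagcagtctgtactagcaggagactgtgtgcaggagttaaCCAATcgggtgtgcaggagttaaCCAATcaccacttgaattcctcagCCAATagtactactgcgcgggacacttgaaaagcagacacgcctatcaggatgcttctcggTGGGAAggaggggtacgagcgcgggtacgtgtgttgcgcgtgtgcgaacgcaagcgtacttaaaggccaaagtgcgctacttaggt
H2bc11: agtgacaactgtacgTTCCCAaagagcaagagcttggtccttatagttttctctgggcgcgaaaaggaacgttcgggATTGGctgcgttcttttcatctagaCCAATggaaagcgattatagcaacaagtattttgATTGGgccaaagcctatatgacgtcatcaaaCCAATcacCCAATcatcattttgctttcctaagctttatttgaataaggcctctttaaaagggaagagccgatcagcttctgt
H3c2: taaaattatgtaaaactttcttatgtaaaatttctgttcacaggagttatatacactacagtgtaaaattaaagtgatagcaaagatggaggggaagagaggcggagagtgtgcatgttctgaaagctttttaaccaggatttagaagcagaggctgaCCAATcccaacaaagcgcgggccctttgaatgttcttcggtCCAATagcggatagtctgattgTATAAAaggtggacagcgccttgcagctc
H4c2: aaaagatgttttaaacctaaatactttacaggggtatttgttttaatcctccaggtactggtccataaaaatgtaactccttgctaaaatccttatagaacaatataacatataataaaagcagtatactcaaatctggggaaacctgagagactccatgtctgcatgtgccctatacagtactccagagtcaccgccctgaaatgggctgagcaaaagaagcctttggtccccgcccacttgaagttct

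In these bases H2bc6 has 3 CCAAT matches and 1 octamer, H3c8 has 3 CCAAT matches and 1 TGGGAA, H2bc11 has 5 CCAAT matches and 1 TGGGAA, and H3c2 has 2 CCAAT matches and 1 TATAAA. The H4c2 bases hold none of the 5 motifs. Over the 300-base windows from 250 bases before to 50 after each start, which RefSeq gave for 57 of the 62 members, 49 (86.0%) held CCAAT against 37.4% of all 32851 such windows. By family CCAAT was in 6 of 6 H1, 16 of 16 H2A, 14 of 14 H2B and 10 of 10 H3 windows and in 3 of 11 H4 windows. TATAAA was in 32 windows (56.1% against 13.6% of all), and ATTTGCAT in 11 (19.3% against 1.74%), which were 5 of 16 H2A and 6 of 14 H2B windows. AAACACA was in 7 windows (12.3% against 7.18%), 5 of them among the 6 H1 genes. TGGGAA was in 13 histone windows (22.8%), against 25.6% of all windows. The shorter Ikaros family core GGGAA was not searched, and it occurs unmarked in the printed H2bc11, H3c2 and H4c2 bases. A match of these letters is a description and not a binding site.

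Reads fell more densely in the proximal segment than around it, slightly more densely in the distal segment, and less densely on chromosome 3. Each cluster was set against the 500 kb on either side, and read density is the sum over regions of CPM (reads divided by all region reads of that library, then scaled up) per Mb of sequence. The depth behind these values was 1570251 to 2081455 reads in regions per library. In the proximal segment the density was 837 ± 89.0 CPM per Mb (SD, n = 3) against 380 ± 20.0 in its flanks, with ratios of 2.03, 2.58 and 2.03 in libraries 1, 2 and 3 (mean 2.21 ± 0.320). All 3 libraries were higher inside the segment, and the excess over 1 was larger than the spread between them. The libraries share the same regions, which covered 5188 bp of 350 kb inside and 6894 bp of 1000 kb in the flanks. Agreement between libraries on read density therefore partly restates how much sequence those regions cover.

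In the distal segment the ratios were 1.24, 1.31 and 1.29 (mean 1.28 ± 0.035; 589 ± 53.7 against 460 ± 30.1 CPM per Mb). On chromosome 3 they were 0.408, 0.292 and 0.242 (mean 0.314 ± 0.0855; 223 ± 60.7 against 710 ± 48.3 CPM per Mb), but the cluster held only 38, 28 and 27 reads in the 3 libraries. Each of these directions was shared by 3 of 3 libraries. The exact two-sided sign-flip permutation test gave p = 0.25 for each cluster, the smallest value that 3 libraries can give. The shared regions covered 2223 bp of 250 kb in the distal segment, against 8844 bp of 1000 kb in its flanks. On chromosome 3 they covered 335 bp of 80 kb, against 12657 bp of 1000 kb. With the 3 clusters together the ratio of read density was 1.30 ± 0.068. Over regions of 200 bp or wider alone the distal ratio was 0.763.

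The proximal segment held more regions than its flanks, and more wide ones, with 6 of 35 (17.1%) at 200 bp or more against 1 of 60 (1.67%). Over all regions 8.86% were this wide, and in the distal and chromosome 3 flanks 12.3% and 11.8%, so the proximal flanks were low. Over its whole length the proximal segment held 100 regions per Mb against 60 in its flanks (35 against 60 regions, ratio 1.67, exact 95% interval 1.07 to 2.57, which covers counting error only). The distal segment held 68 per Mb against 65 (ratio 1.05, 0.575 to 1.81) and the chromosome 3 cluster 37.5 against 93 (ratio 0.403, 0.0817 to 1.22), so both intervals include 1. In genome windows of the same length the median count was 18 for 350 kb, 12 for 250 kb and 4 for 80 kb, and the 35 proximal regions lay inside the range from the 10th to the 90th percentile (1 to 38).

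The mean signal per region, in CPM per kb of region, showed another order. In the proximal segment it was 55.7 ± 5.47 against 55.2 ± 2.72 in the flanks, with ratios of 0.889, 1.17 and 0.977 that lay on both sides of 1 (mean 1.01 ± 0.145, exact permutation p = 1 with n = 3). In the distal segment it was 70.7 ± 7.28 against 53.1 ± 4.01, and all 3 libraries were higher inside, by 1.25, 1.34 and 1.40 times (mean 1.33 ± 0.0752, exact permutation p = 0.25 with n = 3). On chromosome 3 the ratios were 1.27, 0.904 and 0.751 (mean 0.974 ± 0.265, exact permutation p = 0.75 with n = 3). Among regions of 200 bp or wider the distal ratio was 0.948, on 2 such regions inside and 8 in the flanks, so the distal direction rests on narrow regions.

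**Figure D1:**
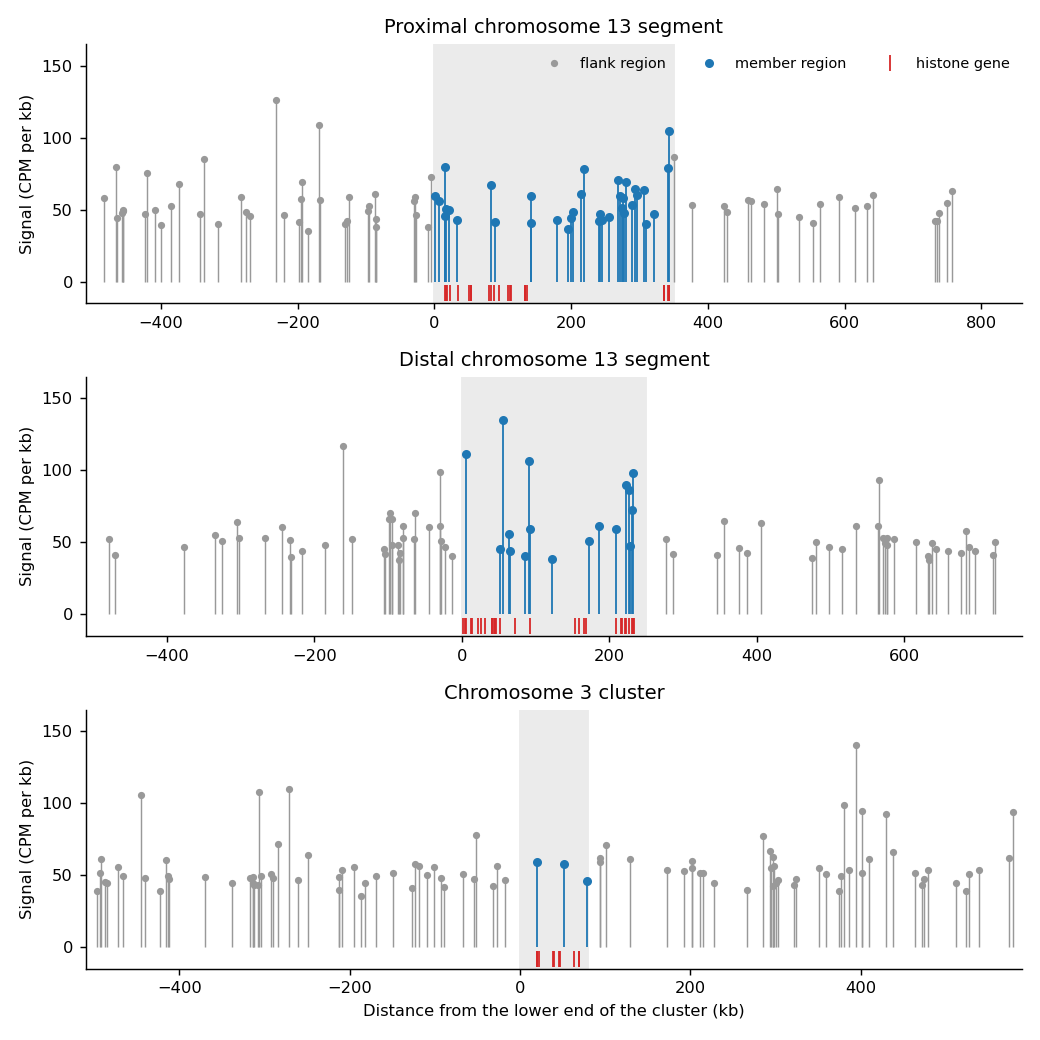
Signal of each region (vertical axis, CPM per kb, mean of 3 libraries) by distance from the lower end of each cluster (horizontal axis, kb), with histone genes as red ticks and the flanks of 500 kb on either side. Regions lie densest in the proximal segment (35), and the chromosome 3 cluster has 3.

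**Figure D2:**
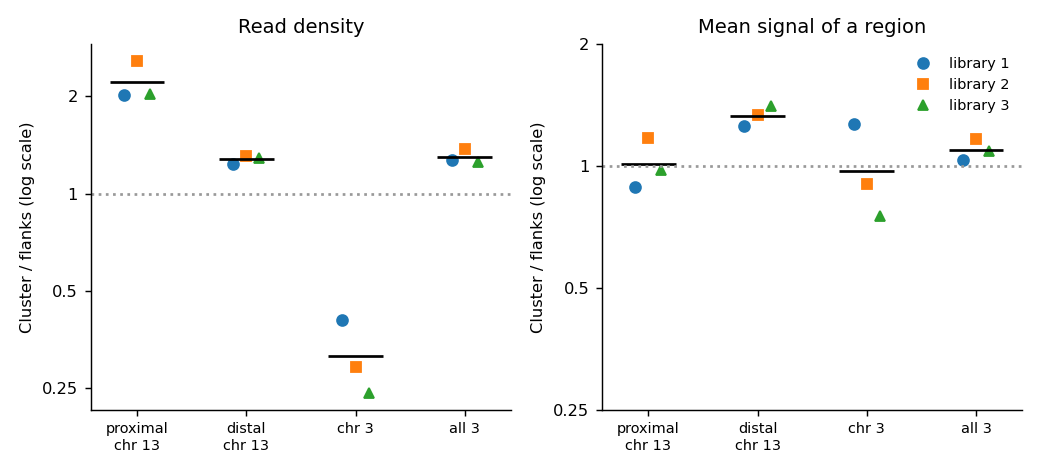
Ratio of cluster to flanks (log scale) for read density and for mean region signal, with a point per library and the mean of 3 libraries. Read density is above 1 in all 3 libraries in both chromosome 13 segments and below 1 in all 3 on chromosome 3, while the proximal signal ratios lie on both sides of 1.

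The surplus of regions in the proximal segment lay mostly where there are no histone genes, a split of the segment made after its regions had been seen. Between H4bc24 and H2ac12 is a stretch of 197.6 kb with 0 histone genes and 31 tRNA genes, and it held 24 of the 35 regions, or 121.5 per Mb. The parts with the 23 histone genes held 11 regions, or 72.2 per Mb, in 152.4 kb. Read density in the stretch was 2.12, 2.81 and 2.19 times that of the flanks in the 3 libraries, and in the histone gene parts 1.90, 2.28 and 1.81 times. The mean signal per region went the other way, at 53.0 ± 6.54 CPM per kb in the stretch and 61.4 ± 3.15 in the histone gene parts. Of the 34 tRNA genes in the clusters, 6 (17.6%) had a region within 200 bp, against 84 of 430 (19.5%) tRNA genes in all. Regions of the stretch included those at chr13:21919222-21919344, on the serine tRNA gene n-TSaga5 at 78.2 ± 32.9, and at chr13:21994056-21994234, at the serine tRNA gene n-TSgct8 at 64.4 ± 15.5.

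The surroundings of the clusters differ in their genes. Olfactory and vomeronasal receptor genes, which are silent in most cells outside the nose, made up 8 of 17 and 16 of 17 protein-coding genes in the lower and upper proximal flanks and 10 of 14 in the lower distal flank. They made up 0 of 9 genes in the upper distal flank and 0 in both chromosome 3 flanks. Regions numbered 39 and 21 in the lower and upper proximal flanks, 34 and 31 in the distal flanks, and 49 and 44 in the chromosome 3 flanks. How far these neighbours set the ratios was not tested.

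Strong regions were more frequent in the clusters than over the genome. A region counted as strong when its mean signal was in the top 10% of all regions, at 64.05 CPM per kb or more, and 15 of the 55 member regions (27.3%) were, against 10% of all regions by definition and 15.6% of the 218 flank regions. The distal segment had 7 of 17 (41.2%) against 13.8% in its flanks, the proximal segment 8 of 35 (22.9%) against 16.7%, and the chromosome 3 cluster 0 of 3 against 16.1%. The member just inside the threshold stood at 64.4, and the one just outside at 63.9, which was also the widest member region (399 bp with 133 reads, chr13:22006325-22006724). In libraries 1, 2 and 3 taken alone, 8, 11 and 12 member regions were strong. Only 3 were strong in each of the 3 libraries (5.45%, against 0.645% of all regions), and 14 were strong in 1 library alone (25.5%, against 24.9% of all regions). With technical replicate 1 alone the count was 6 of the same 55, a share close to 10%, and with technical replicate 2 alone it was 17. Among regions of 200 bp or wider alone it was 1 of 8 member regions, with the top 10% taken over such regions.

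Single regions rested on few reads. The median member region was 111 bp wide with 35 reads over all 3 libraries, against 109 bp and 31 reads for all regions, and its signal was 56.0 against 49.5 CPM per kb. The relative SD between libraries ran from 1.23% to 124% with a median of 43.9%. Across the 55 member regions, Pearson's r of log2(CPM + 0.5) between libraries was 0.435 for libraries 1 and 2, 0.110 for 1 and 3, and 0.290 for 2 and 3. These values describe regions that share libraries and are not independent replicates. The order of most single genes given next is therefore not settled by these libraries.

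Within the clusters, the stronger regions were those at histone genes. The 23 regions on or within 1 kb of a histone gene had a mean signal of 70.8 ± 4.57 CPM per kb (SD, n = 3), and the other 32 had 52.7 ± 5.87. The ratio was 1.36, 1.27 and 1.42 in libraries 1, 2 and 3 (mean 1.35 ± 0.0773), with p = 0.25 in the exact two-sided sign-flip permutation test (n = 3), the smallest it can give. All 3 libraries were higher at histone genes. Outside the clusters, regions within 1 kb of a gene against other regions gave 1.01, 1.06 and 1.03 (mean 1.03 ± 0.027). The 2 contrasts are not alike, because promoters weigh more near the mostly short histone genes. Of the 23 regions 11 overlapped a histone promoter window. Outside the clusters 75287 regions lay within 1 kb of a gene, and 4505 overlapped a promoter window. Of the 23 regions 11 (47.8%) were strong, against 4 (12.5%) of the 32. RefSeq gives H2bc6 a span of 37455 bp, so the 23 include regions inside that span but far from a histone start. They lay at chr13:23593980-23594118 (55.6), chr13:23595136-23595328 (44.2) and chr13:23616283-23616382 (40.5), and none was strong. The 2 strong regions of the 32 that touched neither a histone nor a tRNA gene lay at chr13:21967975-21968065 (70.2 ± 34.5) and chr13:21980290-21980382 (69.3 ± 39.6).

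The 11 regions that overlapped a histone promoter window stood highest, with 7 (63.6%) strong and a median of 79.7 CPM per kb. Promoters of other genes also stood high. Of 4505 regions over another protein-coding promoter, 59.9% were strong, with a median of 70.5 and an interquartile range from 55.9 to 90.7. Means by library were 79.3, 88.7 and 77.8 at histone promoters and 72.4, 88.0 and 71.3 at the others. Within libraries the ratio was 1.09, 1.01 and 1.09 (mean 1.06 ± 0.0487), higher at histone promoters in 3 of 3, with p = 0.25 in the exact two-sided sign-flip permutation test, the smallest that n = 3 can give. The difference in share between 63.6% and 59.9% rests on 11 regions and was not tested. Regions over other promoters were wider, with 32.2% at 200 bp or more against 18.2% at histone promoters.

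**Figure D3:**
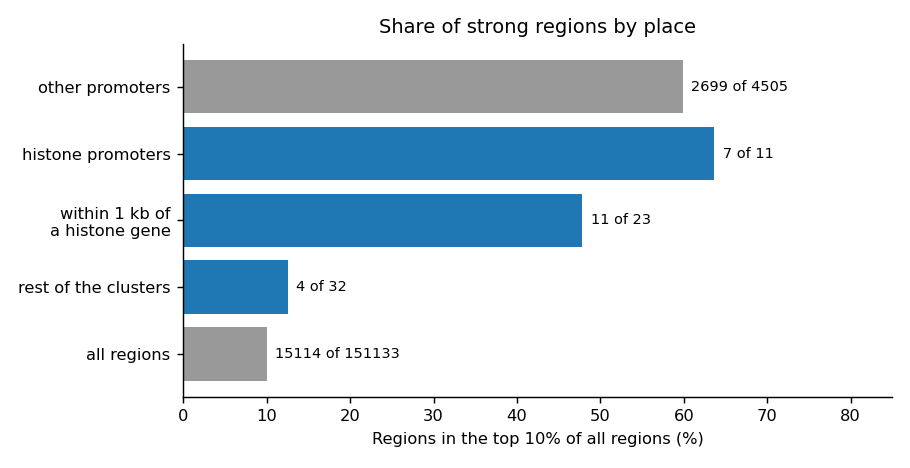
Share of regions in the top 10% of all regions (horizontal axis, percent) for the member regions by place and for regions over other promoters. Regions over histone promoters (63.6%) and over other protein-coding promoters (59.9%) lie close together, far above the member regions away from histone genes (12.5%).

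Regions near histone genes lay close to the starts. The midpoints of 12 member regions were within 250 bp of a histone start site, 8 of them upstream, and 7 of these 12 were strong. The strong ones were centred between -116 and 46.5 bp from the start. Of the 4 strong regions at histone genes that overlapped no promoter window, those at H1f4 and H4c1 lay past the 3′ end and that of H4c9 inside the gene. The strand of H3c1 was not used here.

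**Figure D4:**
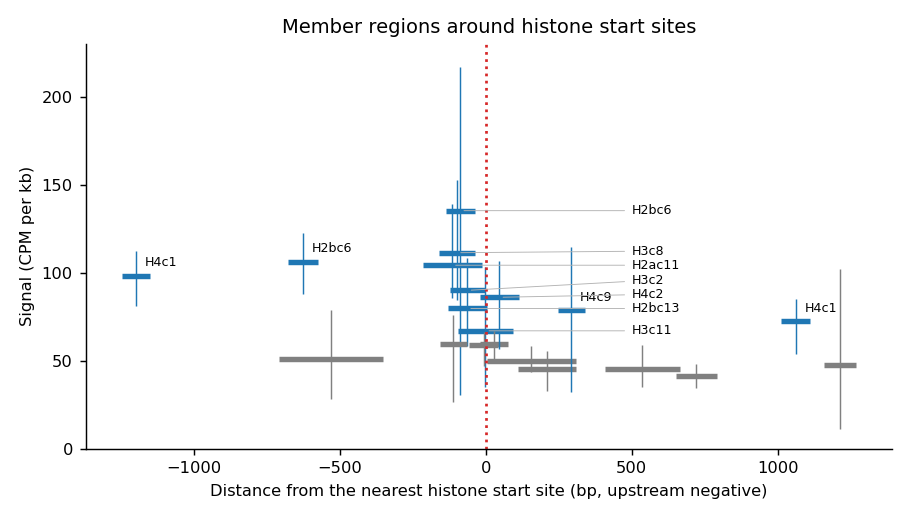
Signal of member regions (vertical axis, CPM per kb) by distance from the nearest histone start site (horizontal axis, bp, upstream negative), where horizontal bars span a region, vertical lines span the 3 libraries, and blue marks the top 10% of all regions. The strong regions gather just before the start, and the vertical line of H2bc6 runs from 30.8 to 217.

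A region was found near a minority of histone genes at short distance and near most of them at a longer one. A region lay within 1 kb of 23 of the 62 genes (37.1%), against 71.4% of all protein-coding genes, a comparison that favours long genes because they have more span to meet a region. On windows of equal length the gap was smaller: 18 of 57 histone genes (31.6%) had a region within 1 kb of the start site, against 37.3% of all genes, and 13 of 57 promoter windows (22.8%) held one, against 26.9%. Within 5 kb of the gene span the count was 33 of 62 (53.2%), against 80.6% of all genes. The proximal segment had 10 of 23 genes with a region within 1 kb, the distal segment 11 of 29 and the chromosome 3 cluster 2 of 10. The 23 genes drew on 17 different regions, since 12 genes shared a region with a neighbour. Their median signal was 79.7 CPM per kb (range 41.3 to 135) against 62.0 for all genes with a region, and 6 of the 23 were in the top 10% of such genes, against 10% by definition. Shared regions count more than once in both values. Among the 6, H2ac10 and H3c8 shared a region, and so did H2ac11 and H2bc11. With regions of 200 bp or wider alone, 7 of 62 histone genes had one, against 25.9% of all genes.

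The H1 genes encode linker histones, which bind the DNA between nucleosomes. Of the 6, 2 had a region. H1f4 stood at 106 ± 17.5 CPM per kb, with 109, 123 and 87.8 in libraries 1, 2 and 3, and technical replicates at 97.4 and 108. Its region (chr13:23621669-23621773) lay 4 bp past the gene's 3′ end and at -627 bp from the farther of the starts that RefSeq lists for H2bc6, so it cannot be given to either gene. All 3 libraries were strong at this region. The region on the H1f4 start (chr13:23622515-23622616) was lower, at 59.0 ± 10.3, and had 0 reads in technical replicate 1. H1f2 stood at 59.3 ± 8.47, with 50.3, 67.0 and 60.7, on a region at its start (chr13:23738787-23738882).

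H2A and H2B form the dimers on the outside of the nucleosome. A region lay within 1 kb of 7 of 16 H2A genes and 5 of 16 H2B genes. The highest value of any member was that of H2bc6, at 135 ± 95.1 CPM per kb, from 30.8, 217 and 158.5 in libraries 1, 2 and 3. Its region (chr13:23586009-23586106, 97 bp) is centred at -87.5 bp from the start and held 70 reads, where libraries 1, 2 and 3 gave 1, 10 and 6 of them in technical replicate 1 and then 4, 23 and 26 in technical replicate 2. Library 1 was low and libraries 2 and 3 were high, so the mean rests on those 2 libraries. It covers 3 of the 4 capital runs printed for H2bc6, the octamer among them.

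H2ac11 and H2bc11 are a divergent pair and share the region chr13:22042964-22043166, at 104 ± 30.0 CPM per kb. The libraries gave 139, 88.3 and 85.6, and the technical replicates 83.5 and 109. The 202 bp held 111 reads and 5 of the 6 capital runs printed for H2bc11. The run outside the region is the TGGGAA match, printed as TTCCCA. The shared region was the strongest of the proximal segment and the only member region of 200 bp or more that was strong. Library 1 was the highest, and libraries 2 and 3 lay close together. The pair H2ac13 and H2bc13 shared chr13:21716181-21716313 at 79.7 ± 25.9, with 108.5, 72.4 and 58.2. Library 1 was again the highest. Of the 9 divergent pairs of an H2A and an H2B gene whose starts were at most 500 bp apart, these 2 were the only ones with a region within 250 bp, and the other 7 had none. Counted per gene and not per pair, 22.8% of histone promoter windows and 26.9% of those of all protein-coding genes held a region. The pairs without a region include those of H2bc23 and H4bc24, whose promoter windows are identical. H2ac11 and H2bc11 start 249 bp apart and H2ac13 and H2bc13 229 bp apart.

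Further H2A values belonged to regions shared with H3 genes. H2ac10 shared 111 ± 36.4 with H3c8 and H2ac4 shared 90.0 ± 1.10 with H3c2. H2ac20 and H2ac21, on chromosome 3, shared chr3:96219726-96219821 at 59.4 ± 28.2, with 75.4, 26.8 and 75.9, where library 2 was low. The lowest members of both families were H2ac22 and H2bc22, which shared 41.3 ± 7.02. H2bc14 had a wide region on its start (chr13:21722046-21722352, 306 bp) that stood at only 49.8 ± 7.76.

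H3 and H4 form the tetramer at the core of the nucleosome. A region lay within 1 kb of 5 of 12 H3 genes. H3c8 stood at 111 ± 36.4 CPM per kb, with 153, 96.8 and 84.6 in libraries 1, 2 and 3 and 112 and 111 in the technical replicates. Its region (chr13:23535257-23535382) is centred at -98.5 bp from the start and was strong in all 3 libraries. It covers 2 of the 4 capital runs printed for H3c8, 1 of them TGGGAA. H3c2 stood at 90.0 ± 1.10, with 90.3, 91.0 and 88.8, the closest agreement between libraries of any member region. Its region (chr13:23752223-23752342) is centred at -62.5 bp from the start, it covers all 3 capital runs printed for H3c2, and the technical replicates gave 69.8 and 93.6.

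H3c1 stood at 98.5 ± 15.8, with 102, 81.3 and 112, but technical replicate 1 gave 45.4 and technical replicate 2 gave 109. Its region is chr13:23762402-23762496. H3c11 stood at 67.0 ± 34.3, with 62.5, 103 and 35.2, on a region that spans its start (chr13:21783303-21783494). Library 2 alone put H3c11 past the threshold. The lowest H3 gene with a region was H3c10 at 50.8 ± 25.6, on 356 bp (chr13:21716918-21717274).

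A region lay within 1 kb of 4 of 12 H4 genes, and only 1 of 11 H4 promoter windows held one. That was H4c2, at 86.1 ± 26.2 CPM per kb with 56.6, 107 and 94.7 (chr13:23756915-23757052), centred 46.5 bp after the start. Its printed bases hold none of the motifs searched, but they end at 23756936, so most of its region lies past them. H4c9 stood at 79.1 ± 42.3, with 32.4, 90.0 and 115, on a region inside the gene (chr13:22041024-22041116), and library 1 was low. H4c1 stood at 72.4 ± 16.4, with 85.3, 78.0 and 53.9, on a region 559 bp past the gene (chr13:23760138-23760236). The lowest was H4c4 at 45.3 ± 12.3, on a region 6 bp past its 3′ end (chr13:23581975-23582234). By promoter window the other families had 2 of 6 H1, 3 of 16 H2A, 4 of 14 H2B and 3 of 10 H3 genes with a region, counts too small to order the families.

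**Figure D5:**
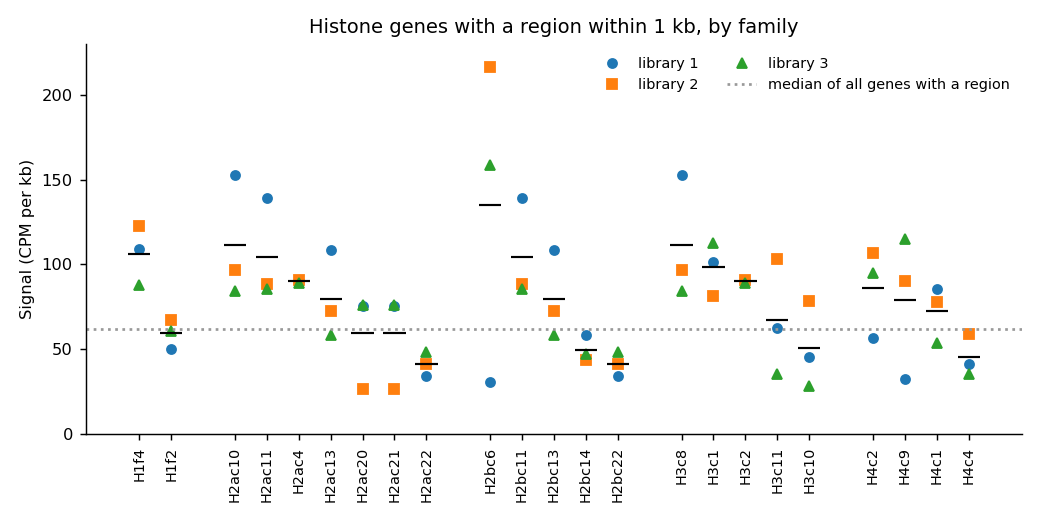
Signal (vertical axis, CPM per kb) of the 23 histone genes with a region within 1 kb, by family, with a point per library and the mean of 3 libraries. H2bc6 has the highest mean (135) and the widest spread, and H3c2 the narrowest.

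The lowest region of each cluster need not lie at a histone gene. It was 36.6 ± 12.3 CPM per kb in the proximal segment (chr13:21896089-21896195), 38.7 ± 15.4 in the distal segment (chr13:23652176-23652398) and 46.2 ± 20.3 on chromosome 3 (chr3:96278230-96278374). The remaining chromosome 3 region stood at 57.7. Technical replicate 1 held 0, 3 and 4 reads over the whole chromosome 3 cluster in the 3 libraries, so no order within it could be read.

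The longest stretches without a region held histone genes, which the bounds of the clusters make likely. How often such stretches occur elsewhere was not examined. In the proximal segment 52352 bp from 21788279 to 21840631 held H2bc23, H2ac23, H4c17, H4c18, H2ac24 and H4bc24, the last an H2B gene by its older name. In the distal segment 50209 bp from 23652398 to 23702607 held H2ac6, H2bc4, H1f6 and H4c3, and on chromosome 3 31452 bp held 7 genes. Several members, in these stretches and elsewhere, are near copies of another member. The promoter windows of H2bc23 and H4bc24 were 100% identical, those of H4c17 and H4c18 99%, those of H3c14 and H3c15 89.7% and those of H4c11 and H4c12 87%. Of these 8 genes with a copy at 80% identity or more, 0 had a region within 1 kb of the start, against 18 of the 49 genes below 80% (36.7%). How reads that map to several places were treated is not given in the sources used here, so the absence of a region at such copies is uncertain.

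Genes that work with the histone clusters but lie outside them were read against the 71.4% of all genes with a region within 1 kb of the span and the 37.3% with one within 1 kb of the start site. Of 15 histone genes outside the clusters, mainly replication-independent variants, 11 (73.3%) had one within 1 kb of the span, close to the share of all genes. Their median signal was 73.1 CPM per kb, and 2 were in the top 10% of genes. The list also holds H2aw, H2bu2 and H4f16, so it is not a pure set of replication-independent genes. The centromeric H3 variant Cenpa stood at 107.5 ± 48.2, H2ax, whose phosphorylated protein marks DNA breaks, at 105 ± 23.1, and H2az2 at 95.1 ± 40.2. The lowest was H2aj at 49.7 ± 12.4. By start site the count was 7 of 14, against 37.3% of all genes.

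Of 28 genes for transcription and 3′ processing of histone messages, 24 (85.7%) had a region, with a median of 66.5 and 3 in the top 10%. Casp8ap2 (FLASH), a component of the histone bodies needed for 3′ processing, stood at 137 ± 17.1, with 139, 153 and 119 in the 3 libraries. Cstf2t, a cleavage stimulation factor, stood at 130 ± 77.5 and Cpsf1, a subunit of the cleavage and polyadenylation factor, at 124 ± 11.2. Npat, the scaffold of the histone bodies, stood at 89.2 ± 7.58, the stem-loop binding protein Slbp at 61.2 ± 17.0 and the lowest, Yy1, at 49.1 ± 2.52. The Yy1 region lay within 1 kb of the gene span but not of a start site. By start site the count was 16 of 23, beside the same 37.3%.

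Of 22 histone chaperone genes, 20 (90.9%) had a region, with a median of 68.1 and 2 in the top 10%. Asf1b, which hands new H3 and H4 to the assembly machinery, stood at 146 ± 39.4, the H3.3 chaperone gene Daxx at 130.5 ± 29.3, and Mcm2, a helicase subunit that also binds histones, at 86.4 ± 31.8. Supt16, of the FACT complex, was lowest at 45.5 ± 25.8. The Daxx and Supt16 regions lay within 1 kb of the gene span but not of a start site. By start site the count was 14 of 21, again beside 37.3% of all genes. The share of genes with a region within 1 kb of the span was above the 71.4% of all genes in the chaperone and expression factor lists. It was close to 71.4% in the list of histone genes outside the clusters (73.3%), and below it for the clustered histone genes (37.1%). Gene length was not accounted for. With regions of 200 bp or wider alone the counts were 1 of 15, 14 of 28 and 8 of 22, against 25.9% of all genes.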

How the data were processed

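Deposited files gave, per sample, a whole-number read count for each of 151133 shared regions, unnormalized; region numbers ran to 153953, 2820 of them unused. The authors worked in mm10 and named Bowtie2 2.3.3.1 and MACS2, per the submitters' processing notes. The sources used here do not give their roles, the threshold, or which samples entered the calls. Whether region starts count from 0 or 1 is open, so they are printed as deposited.

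Technical replicates were summed per library (273896 to 326440 reads in regions in technical replicate 1, 1296355 to 1755015 in technical replicate 2). Signal was CPM per kb of region, which favours narrow regions. Counts of at least 10 were mostly even (84.7% to 87.4% and 58.0% to 61.2%), as when both mates are counted, so read counts may overstate the number of separate fragments. The exact intervals of region density rest on numbers of regions, not reads. A gene's value was its highest region within 1 kb of the gene span (RefSeq, GRCm38.p6, whose coordinates mm10 shares). Flanks left out other clusters. Ratios were tested by an exact two-sided sign-flip permutation test, and the scripts were tested on simulated data. Scripts ran in Python 3.11.15 with scipy 1.17.1, numpy 2.4.6, matplotlib 3.10.9 and pandas 2.3.3.

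The members, lists and rules were chosen with earlier results of these data known. Named were the 3 highest and the lowest gene with a region of each family and list, the 3 highest regions and the lowest of each cluster, and every strong member region. Other genes named were chosen after their values were seen. Alternatives were flank size, each technical replicate, each library left out, region width, region CPM, distance to genes and, added after seeing the data, a start-site window and leaving out the H2bc6 region.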

Additional observations from a re-analysis of the deposited data

Results flagged for a closer look

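In the distal chromosome 13 segment, technical replicate 1 of library 3 stood apart from the other 5 samples on both measures. Its read density was 0.447 times that of the flanks, against 1.19 to 1.52 in the others, and its mean region signal was 0.530 times that of the flanks, against 1.24 to 1.60. The gap to the nearest sample, divided by the whole range, passed Dixon's 95% critical value for 6 samples. This sample held 19 reads in the segment. Of 9 sets of 6 samples examined, 2 passed, where chance passes about 1 in 20 independent groups. The 9 sets share samples and reads, and the 2 that passed measure the same reads. Depth also differed between technical replicates, so that rate is only a rough guide.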

How the results depend on the processing

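The signal ratio between histone-gene regions and other member regions kept its direction under the 8 alternatives that changed its value (1.223 to 1.419); the other 4 gave the main value again. Read density kept its direction in 33 of the 34 cases where its value changed, counting chromosome 3 with 0 wide regions, and in the distal segment was 0.763 with regions of 200 bp or wider. With those wide regions the signal ratio was 0.931 (proximal), 0.948 (distal) and 0.999 (all 3 clusters). The cluster-to-flank ratio of region density was 17.1 (proximal, where the flanks held 1 wide region), 0 (chromosome 3) and 1.77 (all). Only 1 member region was strong, and it lay at a histone gene. A region was found at 7 histone genes of the clusters. The chaperone, expression factor and outside-cluster histone lists had 8, 14 and 1. With technical replicate 1 alone the signal ratio was 0.835 (proximal) and 0.913 (all), and 6 member regions were strong, 3 of them at histone genes; with technical replicate 2 alone the chromosome 3 ratio was 1.09. With 250 kb flanks it was 0.990 (proximal) and 1.03 (chromosome 3), with 1 Mb flanks 1.01 (chromosome 3), and with regions within 1 kb of a gene end 0.814 (proximal) and 0.986 (all). Leaving out each library in turn gave 0.933 (without library 2) to 1.075 in the proximal segment and 0.828 (without library 1) to 1.085 (without library 3) on chromosome 3. By start site 7 of the histone genes listed outside the clusters had a region. The cause of these changes was not tested. No paired analysis was possible because the control antibody samples, which share replicate numbers, were not analysed here. Depth limits single regions, with a median of 35 reads over 3 libraries.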
